A study of Mus musculus with 6 samples.

Results

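The regions described here are 911 stretches of the mouse genome that carried a peak of H3K27ac, the acetylation of histone H3 at lysine 27, in both libraries of lung mesothelium and in neither library of lung epithelium, and that lay at most 2 kb from an end of an annotated gene. They were found by merging the peaks of 4 libraries on chromosomes 1 to 19, X and Y into 132165 regions, of which 23404 lay within 2 kb of a gene end. The 911 regions were 3.89% of these 23404. The regions were chosen by the presence of a peak in the mesothelium libraries and its absence from the epithelium libraries, so those values are given as a description and were not tested.

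The libraries came from lungs of mouse embryos at E16.5, an age in days after mating. The study is about mesothelial MYRF, a transcription factor that is made as a membrane protein. Acetylated chromatin was captured by CUT&RUN, in which an antibody brings a nuclease to the mark and the DNA freed there is sequenced. The mesothelium group (2 libraries) held live (DAPI-negative) cells with podoplanin (PDPN) at the surface and without CD31, CD45 or EPCAM, from 25k cells (k, 1000) in replicate 1 and 100k in replicate 2. The epithelium group (2 libraries) held live cells with both EPCAM and PDPN and without CD31 or CD45, from 100k cells in replicate 1 and 200k in replicate 2. The 25k of the titles is below, and the 200k above, what the protocol says was used for H3K27ac. Both groups came from matings of Myrf Fl/Fl mice, with no Cre named, and the series text calls the mesothelial cells wildtype. Lungs of several embryos were pooled before sorting, and the labels do not say whether replicates came from separate pools. The gates would also admit other PDPN-positive cells, and the 2 IgG control libraries of epithelial cells were not used here, so the peaks stand without a measured background.

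The mesothelium is the flat cell layer that covers the lung, and in the embryo it sends signals to the tissue below it and gives rise to some mesenchymal cells. H3K27ac marks active promoters and active enhancers. Near the start of a gene it accompanies an active promoter, while broad stretches of it that reach into the gene body are known from genes that define a cell's identity.

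The start sites of several genes lay inside the regions, and 6 of their promoters are shown because they span the kinds of gene found there. They are Meis1, whose homeodomain protein binds DNA with HOX proteins, Hoxb4, a gene of position along the body axis, Muc16, which encodes the large surface mucin of mesothelium, Col6a1, a collagen gene, Chkb, a choline kinase gene, and Rps19, a gene of the small ribosomal subunit. Each window runs 5′ to 3′ on the strand of its gene, from 250 bases before the start to 50 bases after it, is 300 bases long and comes from RefSeq (GRCm38.p6, the assembly that mm10 names). The starts of Meis1 and Hoxb4 lay under a peak of mesothelium replicate 2 but not of replicate 1. Capitals mark matches to any of 19 short motifs that are spelled out further on.
Meis1, chr11:19018920-19019219, minus strand: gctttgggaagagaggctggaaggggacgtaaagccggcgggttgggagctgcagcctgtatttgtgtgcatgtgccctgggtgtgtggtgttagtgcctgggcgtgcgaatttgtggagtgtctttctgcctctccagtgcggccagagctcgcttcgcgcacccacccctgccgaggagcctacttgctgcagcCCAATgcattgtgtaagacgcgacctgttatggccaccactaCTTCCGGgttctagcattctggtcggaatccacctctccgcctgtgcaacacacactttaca
Hoxb4, chr11:96318017-96318316, plus strand: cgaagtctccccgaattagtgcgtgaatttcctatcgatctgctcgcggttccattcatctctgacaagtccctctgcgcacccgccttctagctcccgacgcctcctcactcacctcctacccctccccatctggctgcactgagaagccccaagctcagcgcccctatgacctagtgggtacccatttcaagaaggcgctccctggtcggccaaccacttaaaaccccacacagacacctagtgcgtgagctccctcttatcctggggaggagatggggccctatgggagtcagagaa
Muc16, chr9:18674554-18674853, minus strand: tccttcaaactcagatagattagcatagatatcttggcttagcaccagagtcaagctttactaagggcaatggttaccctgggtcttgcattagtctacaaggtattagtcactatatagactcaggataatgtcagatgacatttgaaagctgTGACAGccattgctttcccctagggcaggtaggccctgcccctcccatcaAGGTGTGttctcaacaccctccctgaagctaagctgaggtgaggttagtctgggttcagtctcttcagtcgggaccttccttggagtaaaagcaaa
Col6a1, chr10:76725995-76726294, minus strand: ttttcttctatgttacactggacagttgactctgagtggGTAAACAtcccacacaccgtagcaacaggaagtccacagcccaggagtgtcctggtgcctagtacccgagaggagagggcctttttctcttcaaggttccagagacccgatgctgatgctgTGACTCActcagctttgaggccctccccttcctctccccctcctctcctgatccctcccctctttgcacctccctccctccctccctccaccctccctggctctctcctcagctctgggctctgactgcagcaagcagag
Chkb, chr15:89429878-89430177, minus strand: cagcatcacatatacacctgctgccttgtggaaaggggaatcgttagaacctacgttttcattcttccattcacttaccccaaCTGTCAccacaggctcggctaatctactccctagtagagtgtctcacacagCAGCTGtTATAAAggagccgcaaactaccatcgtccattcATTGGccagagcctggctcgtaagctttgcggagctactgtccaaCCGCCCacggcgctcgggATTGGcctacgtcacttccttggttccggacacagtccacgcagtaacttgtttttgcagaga
Rps19, chr7:24884342-24884641, plus strand: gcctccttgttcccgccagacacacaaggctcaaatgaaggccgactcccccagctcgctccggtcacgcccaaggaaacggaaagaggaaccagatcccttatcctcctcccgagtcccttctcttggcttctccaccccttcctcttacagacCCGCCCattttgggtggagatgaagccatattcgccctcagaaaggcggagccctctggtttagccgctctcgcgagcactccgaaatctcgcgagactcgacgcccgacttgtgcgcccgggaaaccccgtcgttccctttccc
The windows differ in CpG dinucleotides, which number 1 in Muc16, 3 in Col6a1, 14 in Hoxb4, 14 in Chkb, 15 in Meis1 and 23 in Rps19. The Hoxb4 window holds none of the 19 motifs. In the Meis1 window an ETS match lies 12 bases before the start, and in the Chkb window a TATA box lies at −109 and CCAAT boxes at −76 and −13.

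Of 1228 annotated miRNA genes, 19 (1.55%) had one of the regions within 2 kb. The mature miRNAs of a pair of these genes are shown. In each case a merged region spanned the miRNA gene, and a longer host transcript or Hox gene lay under the same region. Other miRNA genes also lay inside a region, such as Mir3081 at Boc, and are not shown. The pair was chosen after its values were seen, although Mir10a is also named by the rule on runs of regions. Capitals mark the seed, bases 2 to 8, with which a miRNA pairs to its targets.
mmu-miR-10a-5p, chr11:96317186-96317208, plus strand: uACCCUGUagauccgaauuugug
mmu-miR-10a-3p, chr11:96317227-96317248, plus strand: cAAAUUCGuaucuaggggaaua
mmu-miR-199a-5p, chr1:162217844-162217866, plus strand: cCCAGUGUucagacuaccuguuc
mmu-miR-199a-3p, chr1:162217883-162217904, plus strand: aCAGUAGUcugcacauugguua
Mir10a lies between Hoxb4 and Hoxb5, and Mir199a-2 lies within Dnm3os, a long non-coding RNA gene of mesenchymal tissues. The Mir10a gene lay under a peak of mesothelium replicate 1 and in a gap between peaks of replicate 2. The 4 seeds are all different. The region at Mir199a-2 (chr1:162217568-162219195) was covered over 1.63 kb in mesothelium replicate 1 and 1.16 kb in replicate 2, and Dnm3os also had an epithelium-only region at an end.

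Before the results, the libraries themselves need a description, because mesothelium replicate 2 stood apart at gene ends. The lists used held 39006 and 41524 peaks in the mesothelium libraries and 47869 and 46632 in the epithelium libraries, and read depth is unknown because the lists hold no counts. Crossed regions, those with a peak in 1 library of each cell type and no other, show what mixed pairs of libraries give. Near gene ends they numbered 362 (mesothelium 1 with epithelium 1), 307 (mesothelium 1 with epithelium 2), 517 (mesothelium 2 with epithelium 1) and 673 (mesothelium 2 with epithelium 2), with a mean of 464.75 ± 164.9 (SD, n = 4 patterns). The mesothelium-only count of 911 was 1.96 times this mean and above each of the 4 patterns, and the epithelium-only count of 915 (3.91% of gene-end regions) was 1.97 times the mean. Of the 3685 gene-end regions present in exactly 2 libraries, 24.7% were mesothelium-only. With 2 libraries against 2 the smallest exact permutation p-value is 0.333, so no test of presence was possible.

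Among regions of exactly 2 libraries, the share that lay near a gene end was highest where mesothelium replicate 2 was paired with an epithelium library. Of all 3445 mesothelium-only regions 26.4% lay near a gene end (95% exact binomial interval 25.0 to 28.0%, which covers counting error only), against 20.9% of the 4384 epithelium-only regions. The share was 19.8% and 20.3% in the crossed patterns with mesothelium replicate 1 and 29.9% and 33.7% in those with mesothelium replicate 2. The mesothelium-only share thus lay between those of the crossed patterns of its own libraries. The cell number of the libraries and the replicate cannot be told apart here, and the part of replicate 2 in the results below was not tested beyond leaving it out. When a library is left out, a peak is asked of fewer libraries, and the count then rose from 911 to 4777 without mesothelium replicate 1 and 4094 without its replicate 2. Leaving out an epithelium library gave 1591 (replicate 1) and 1607 (replicate 2).

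**Figure D1:**
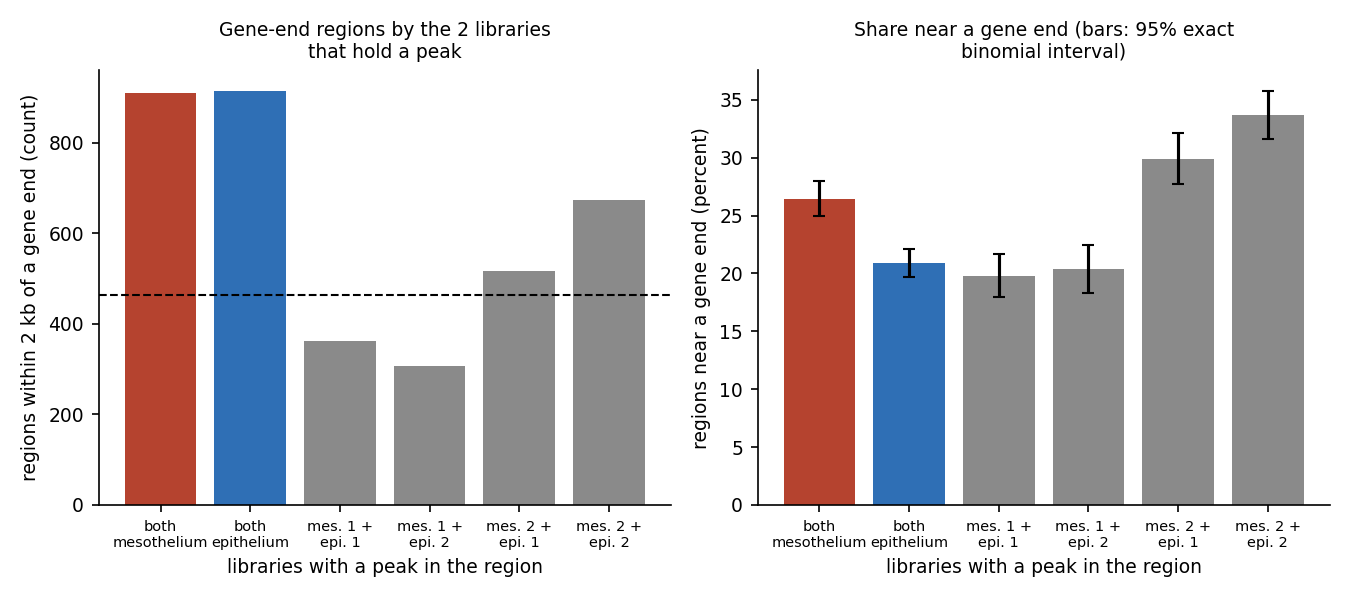
Left, number of merged regions within 2 kb of a gene end for each pair of libraries that held a peak when the other libraries held none (mes., mesothelium; epi., epithelium; dashed line, mean of the 4 crossed pairs, 464.75). Right, percent of each pattern's regions that lay near a gene end, with 95% exact binomial intervals. The 911 mesothelium-only and 915 epithelium-only regions stand above every crossed pair, while the share near a gene end is highest in the crossed pairs with mesothelium replicate 2.

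Most of the 911 regions were short, and in most of them the peaks of the 2 mesothelium libraries overlapped in part. Their median width was 1493 bp (335 to 15758 bp), against 1612 bp for epithelium-only and 2797.5 bp for gene-end regions present in all 4 libraries, and 42 were at least 4 kb wide. Peaks covered a median of 0.826 kb of a region in replicate 1 (0.315 to 10.8 kb) and 1.09 kb in replicate 2 (0.311 to 12.7 kb). The sequence covered in both libraries had a median of 0.488 kb, or 37.8% of the width. It made up at least 50% of the width in 296 regions and under 10% in 83. Each library had 1 peak in 897 of the 911 regions.

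The deposited fold enrichment of the highest peak in a region, over the peak caller's background, had a median of 3.69 in replicate 1 (2.83 to 6.59) and 3.93 in replicate 2 (2.47 to 10.3). The median of the deposited −log10 q, a measure of how surely a peak stands above background, was 1.85 in replicate 1 and 2.34 in replicate 2. Over all peaks of these libraries the medians were lower, at 1.72 and 2.05, but a region needed a peak in both libraries. Gene-end regions of all 4 libraries had higher medians in the same libraries, at 2.17 and 2.98. In 271 regions (29.7%) both libraries had a −log10 q of at least 2, and in 8 (0.878%) of at least 4. Replicate 2 had the longer cover in 537 regions and the higher −log10 q in 634. Across the 911 regions, which share their libraries, Spearman's rho between the 2 libraries was 0.235 for covered length and 0.110 for −log10 q, so a region's rank in one library said little about its rank in the other.

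**Figure D2:**
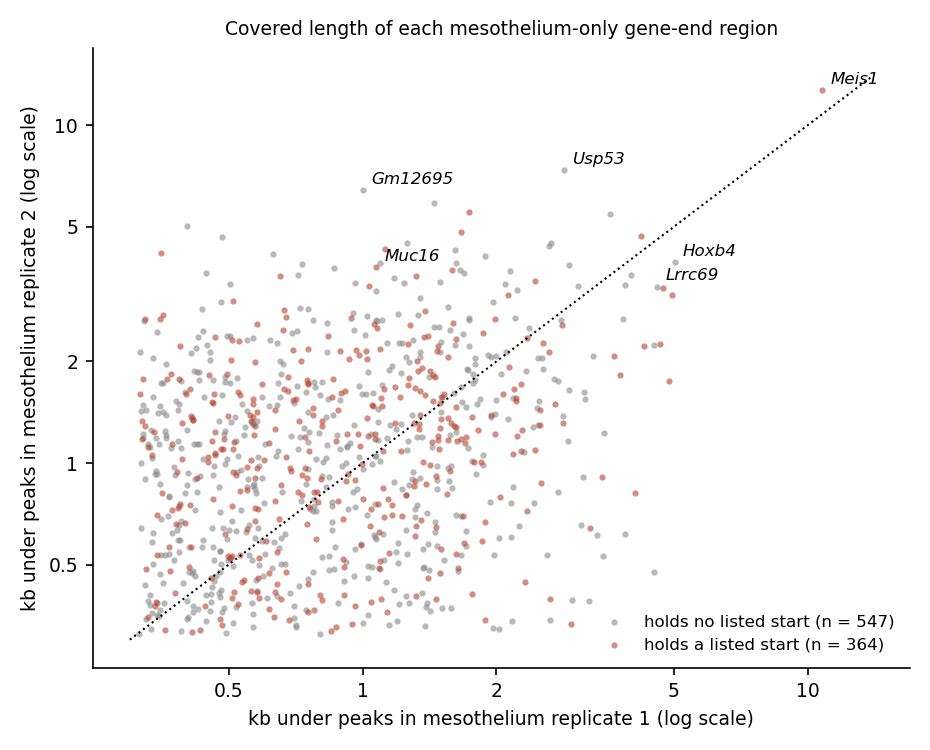
Kilobases under peaks in mesothelium replicate 1 (horizontal, log scale) and replicate 2 (vertical, log scale) for each of the 911 regions, with a dotted line of equal cover and red points for the 364 regions that hold a listed gene start. Meis1 lies far from the rest at 10.8 and 12.7 kb, and more points lie above the line (537) than below it.

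The widest region lay at Meis1 (chr11:19005715-19021472, 15.8 kb). It was covered over 10.8 kb in mesothelium replicate 1 and 12.7 kb in replicate 2, of which 7.71 kb were common to both, and the nearest epithelium peak was 40.4 kb away when counted from its edges. It held the start of Meis1, whose promoter is shown above, and an end of the non-coding gene Gm16141. A peak of replicate 2 lay over the listed Meis1 start, and the replicate 1 peak ended just short of it. Over the Meis1 gene and 2 kb on each side, 37.97 and 42.2 kb lay under mesothelium peaks and 1.68 and 1.79 kb under epithelium peaks.

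Wide regions held both ends of Hoxb4. The region that held its start and Mir10a (chr11:96313234-96318475) was covered over 4.96 kb in replicate 1 and 3.14 kb in replicate 2. The region that held its stop (chr11:96319666-96326058) was covered over 5.03 and 3.94 kb. The end bases themselves were each covered in 1 library: peaks of replicate 1 lay over the stop and ended just short of the start, and peaks of replicate 2 lay over the start and began past the stop. No epithelium peak touched the gene or its 2 kb flanks.

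The other wide regions were less even between the libraries. At Usp53 (7.58 kb) peaks covered 2.83 kb in replicate 1 and 7.37 kb in replicate 2. At Mst1r, which encodes the receptor of macrophage-stimulating protein, they covered 1.73 and 5.55 kb, and at the predicted gene Gm12695 1.00 and 6.44 kb. At Frs2, an adaptor of FGF receptors, the cover was 2.91 and 3.87 kb, but an epithelium peak lay 586 bp away. Inside Fgf9, which encodes a growth factor that lung mesothelium sends to the mesenchyme, a region that ended 1.97 kb before the gene's stop was covered over 1.45 and 5.88 kb (chr14:58103587-58110889). There the libraries had 0.028 kb in common, so the 7.30 kb of the region came from peaks that scarcely met. The regions at Gm5563 (4.23 and 4.71 kb), Armc9 with Gm16341 (3.603 and 5.47 kb) and 4930573G07Rik (4.51 and 2.24 kb) completed the 10 widest. The non-coding gene Gm5563 lies inside Tbx5, a T-box gene that had no such region at its own ends. Over Tbx5 and its 2 kb flanks 7.85 and 12.7 kb lay under mesothelium peaks, and no epithelium peak was listed. By bases covered in both libraries, Meis1 was followed by Gm44577, Lrrc69 (3.33 kb in common) and Pde5a, a cyclic GMP phosphodiesterase gene (3.15 kb).

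**Figure D3:**
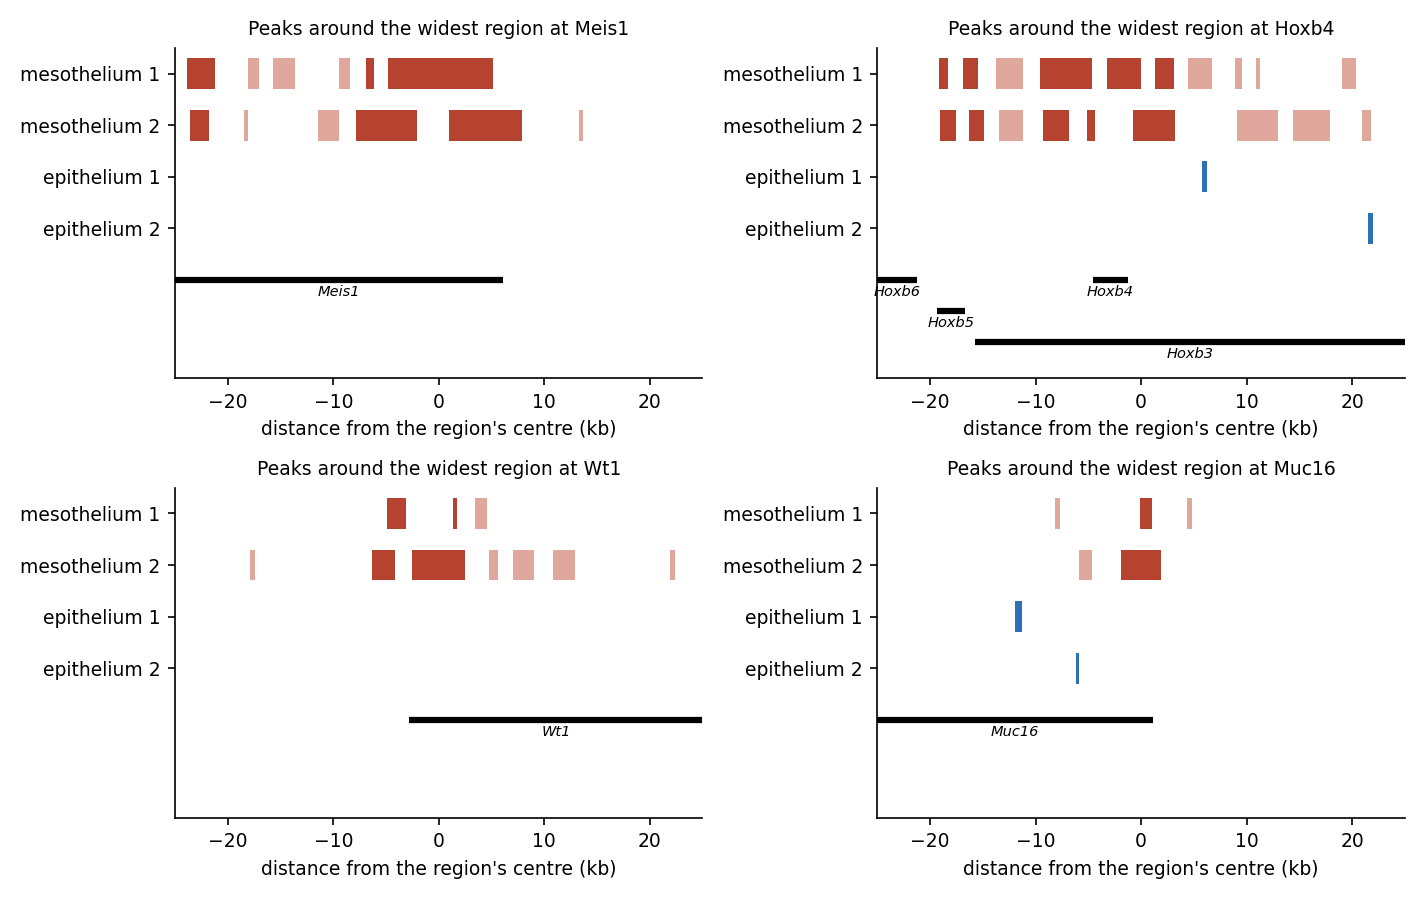
Peaks of the 4 libraries within 25 kb of the centre of the widest region at Meis1, Hoxb4, Wt1 and Muc16, by distance from that centre in kb (dark red, mesothelium peaks in the described regions; pale red, other mesothelium peaks; blue, epithelium peaks; black bars, protein-coding genes). Mesothelium peaks fill both libraries around Meis1 and Hoxb4, while at Wt1 and Muc16 the peaks of replicate 2 are the longer ones.

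The regions with the highest −log10 q lay at other genes. The 10 regions with the highest −log10 q, taken in the library where it was lower (3.797 or more), were 0.517 to 2.15 kb wide, and none of them was among the 10 widest, whose lower −log10 q ran from 1.32 to 3.12. The highest stood over the start of Med16, a Mediator subunit gene, within 2 kb of R3hdm4 (chr10:79908389-79908972), with a −log10 q of 5.61 in replicate 1 and 15.8 in replicate 2 and fold enrichments of 5.42 and 10.3. The region over the start of Chkb (chr15:89429487-89430668) had a −log10 q of 6.14 and 4.19. Others lay at Eef1d, a translation elongation factor gene (4.71 and 4.78), Asl, an enzyme gene of the urea cycle (4.42 and 5.08), Pds5a, a cohesin regulator gene (4.21 and 4.71), G2e3 with Scfd1 (3.96 and 6.64) and the non-coding genes Gm42149, 2310001H17Rik and Gm15528. None of these genes was on the lists of developmental genes described below. Across all 911 regions, Spearman's rho between width and the lower −log10 q was 0.0449.

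A gene end lay inside 504 of the 911 regions (55.3%), 177 more were within 500 bp of an end and 147 lay more than 1000 bp away. An end lay inside 47.1% of epithelium-only and 83.9% of all-library gene-end regions, and inside 40.9%, 39.1%, 59.8% and 58.1% of the crossed ones. A start listed in RefSeq lay inside 364 of the regions (39.96%), against 27.3% of epithelium-only and 70.6% of all-library regions. In the crossed patterns this share was 24.3% and 22.1% with mesothelium replicate 1 and 48.5% and 48.7% with replicate 2, so it again lay between those of its own libraries. Where the strand of the gene was known, 403 regions lay near starts only, 168 near the other end only and 112 near both kinds, and 228 lay near genes of unlisted strand. Regions that held a start were about as wide as the rest (medians of 1524.5 and 1471 bp).

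In all, 1183 of 49943 annotated genes (2.37%) had one of the regions at an end. They included 800 of 21887 protein-coding genes (3.66%), 283 of 12727 lncRNA genes (2.22%), 46 pseudogenes and 19 miRNA genes. For comparison, 2.7% of protein-coding genes had an epithelium-only region and 12.0% a region of all 4 libraries at an end. A total of 255 regions (28.0%) had no protein-coding gene within 2 kb, against 43.1% of epithelium-only regions, and 189 of these had a lncRNA gene. Another 154 (16.9%) had 2 or more protein-coding genes within 2 kb, against 9.07% of epithelium-only and 25.4% of all-library regions, and 9.45 to 21.5% of the crossed ones. The region with the most genes, 5 in number, lay at Glrx5, a mitochondrial glutaredoxin gene, with the small RNA genes Mir3069 and Scarna13.

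By chromosome, the regions made up 2.30% (chromosome 19) to 4.796% (chromosome 7) of gene-end regions on the autosomes and 2.52% on the X chromosome. None of the 8 gene-end regions of the Y chromosome was among them.

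Among 22 gene lists, the anterior Hox genes (paralogue groups of the anterior part of the body axis) had the highest share with a mesothelium-only region, and 3 of 20 mesothelial markers had one. The lists were chosen with earlier results of these data known, and their counts are read against the 3.66% of all protein-coding genes without a test. Of 15 anterior Hox genes, 7 had a mesothelium-only region at an end (among them Hoxa4, Hoxa5, Hoxb3, Hoxb4 and Hoxb5) and none an epithelium-only one. Of 24 other Hox genes Hoxa6 had one, through the region it shares with Hoxa5. The Hox genes lie close together, and several share a region, so they are not independent.

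At Hoxa5 and Hoxa6 (chr6:52200099-52204418) peaks covered 3.05 kb in replicate 1 and 3.34 kb in replicate 2. At Hoxa4 (chr6:52193208-52196074) they covered 0.435 and 2.87 kb, an uneven pair. Over Hoxa4 and its 2 kb flanks replicate 1 had no peak and replicate 2 had 0.496 kb, so the gene is counted through a region whose replicate 1 peak lay further away. Another of the 7 genes likewise had no replicate 2 peak over the gene and its flanks. The region inside Hoxb5 (chr11:96303658-96305309) was covered over 0.891 and 1.54 kb, and the region that reached from the end of Hoxb5 into Hoxb3 (chr11:96305937-96308002) over 1.502 and 1.42 kb. Summed over the 15 genes and their 2 kb flanks, with overlapping genes counted separately, 48.1 and 48.3 kb lay under mesothelium peaks and 0.864 and 0.488 kb under epithelium peaks. For 6 of the 15 genes, among them Hoxb1, Hoxc4 and Hoxd4, no mesothelium peak was listed. When only peaks with a −log10 q of 2 or more were admitted, 4 of the genes had such a region, Hoxa5 and Hoxb4 among them, and with 4 or more none did.

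Of 20 mesothelial markers, 3 had a mesothelium-only region at an end: Wt1, a zinc-finger factor of mesothelium, Lrrn4, a leucine-rich repeat membrane protein, and Muc16. Msln and Tgm1, of the same list, had an epithelium-only region instead. At Wt1 and its antisense partner Wt1os, peaks of one region (chr2:105122976-105126179) covered 1.73 kb in replicate 1 and 2.22 kb in replicate 2, and those of the next (chr2:105126801-105131820) 0.404 and 5.02 kb. At Muc16 (chr9:18671839-18675631) the cover was 1.07 and 3.79 kb, and at Lrrn4 (chr2:132893677-132895173) 0.536 and 1.497 kb. Replicate 2 had the longer cover in each of these regions. When only peaks with a −log10 q of 2 or more were admitted, 2 markers had such a region, Muc16 and Upk1b, and Wt1 and Lrrn4 did not. With 4 or more, no marker had one. Over the whole list, gene bodies with 2 kb flanks held 27.7 and 79.9 kb under mesothelium peaks and 8.18 and 13.3 kb under epithelium peaks. The count of markers was 10 of 20 without mesothelium replicate 1 and 5 without replicate 2. The rule is looser when a library is left out, for every gene. Such a region then lay at 3424 and 2772 of the 21887 protein-coding genes, against 800 with all libraries.

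Of 45 mesodermal transcription factor genes, Tbx4, a T-box gene of lung mesenchyme and limb, had such a region (2.22%), and Tcf4 and Eya1 had an epithelium-only one. The region at Tbx4 (chr11:85887076-85889625) was covered over 1.5 and 2.29 kb. Without mesothelium replicate 1 the count was 8, which then included Gata5, Tbx2 and Tcf21, and without replicate 2 it was 4. Over all 21887 protein-coding genes the looser rule likewise raised the count, from 800 to 3424 and 2772. In the homeobox genes of the TALE class, to which Meis1 belongs, 1 of 12 had a mesothelium-only region and 1 an epithelium-only one.

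Extracellular matrix genes had a region at 6 of 42 (14.3%), and none had an epithelium-only region within 2 kb of an end. At Col5a2, a chain of the fibril-regulating collagen V, peaks covered 1.33 kb in replicate 1 and 2.74 kb in replicate 2. At Fbln5, an elastic fibre gene, they covered 1.98 and 1.22 kb. At Col6a1 they covered 1.09 and 0.488 kb with 0.011 kb in common, so the 2 libraries marked neighbouring stretches. The others were Col5a1 (0.556 and 0.534 kb), Col14a1 (0.642 and 2.27 kb) and the laminin gene Lama4 (0.754 and 0.961 kb). The gene bodies of the list held 173 and 184 kb under mesothelium peaks and 189 and 153 kb under epithelium peaks, so the lengths of the 2 cell types overlapped over the list as a whole. Inside Fbln5, further from its ends, lay 3 epithelium-only regions, and epithelium peaks covered more of the gene (9.41 and 5.72 kb) than mesothelium peaks (4.79 and 1.22 kb).

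Each signalling list had between 0 and 2 such genes, too few to set a list apart from the 3.66% of all protein-coding genes. Among ligands these were Fgf9, 1 of 17 FGF pathway genes, and Wnt9a, 1 of 33 WNT pathway genes, whose region was covered over 0.981 and 1.04 kb. Among receptors it was Boc, a co-receptor of hedgehog proteins (0.711 and 2.47 kb, in a region shared with Mir3081), and among inhibitors Sufu, which holds back the GLI factors (0.350 and 2.66 kb), so the hedgehog list had 2 of 14. The region at Sufu also held the start of Actr1a, and Sufu had a region of all 4 libraries at an end. Sufu and its 2 kb flanks held 11.55 and 9.90 kb under mesothelium peaks and 17.9 and 7.67 kb under epithelium peaks. Ptch1, of the same list, had an epithelium-only region. Rdh10, which makes retinaldehyde, was 1 of 19 retinoic acid genes (1.63 and 3.91 kb). Sav1 (1.60 and 1.61 kb) and Nf2 (1.51 and 1.57 kb), both upstream in the Hippo pathway, were 2 of 21 genes of that list, of which 5 had an epithelium-only region. The FGF list had 4 epithelium-only regions (Fgf1, Fgfr3, Spry1 and Etv5). None of 34 TGF-beta and BMP genes and none of 15 Notch genes had a mesothelium-only region at an end.

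Myrf and its partner Tmem98 had none either, and a region of all 4 libraries lay at an end of both. For Myrf with its 2 kb flanks, mesothelium replicate 1 had no peak, replicate 2 had 1.53 kb and the epithelium libraries had 1.49 and 1.25 kb. Of 33 listed cytosolic ribosomal protein genes, Rpl35, Rplp1 and Rps19 had a mesothelium-only region and 13 a region of all 4 libraries, Rpl35 among them. Outside the list, Rpl17, Rpl36, Rps7 and Rps20 also had a mesothelium-only region. At Rps19 peaks covered 0.636 and 0.415 kb, an epithelium peak lay 508 bp away, and an epithelium-only region also lay at an end of the gene.

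Counts for markers of other cells are read against the same 3.66%, and the mesothelium gate itself left out cells with EPCAM, CD31 or CD45. None of 10 epithelial, 8 fibroblast, 7 endothelial, 5 blood and 4 nerve markers had one, and 1 of 6 smooth muscle and pericyte markers did, namely Pdgfrb (0.484 and 0.362 kb). Over gene bodies with 2 kb flanks, fibroblast markers held 6.79 and 11.4 kb under mesothelium peaks and 4.28 and 5.34 kb under epithelium peaks. Epithelial markers held 7.61 and 4.50 kb against 52.3 and 52.5 kb, endothelial markers 8.15 and 5.27 kb against 1.34 and 3.41 kb, and smooth muscle and pericyte markers 2.09 and 2.202 kb against 2.01 and 4.61 kb. Epcam had no mesothelium peak, and Ptprc, which encodes CD45, had none either, whereas Pecam1, which encodes CD31, carried 4.36 and 1.52 kb. The gate gene Pdpn carried 0.364 kb and no peak in mesothelium against 8.64 and 5.93 kb in epithelium, although both gates asked for the protein. The part of fibroblast and endothelial cells in the regions was not tested.

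**Figure D4:**
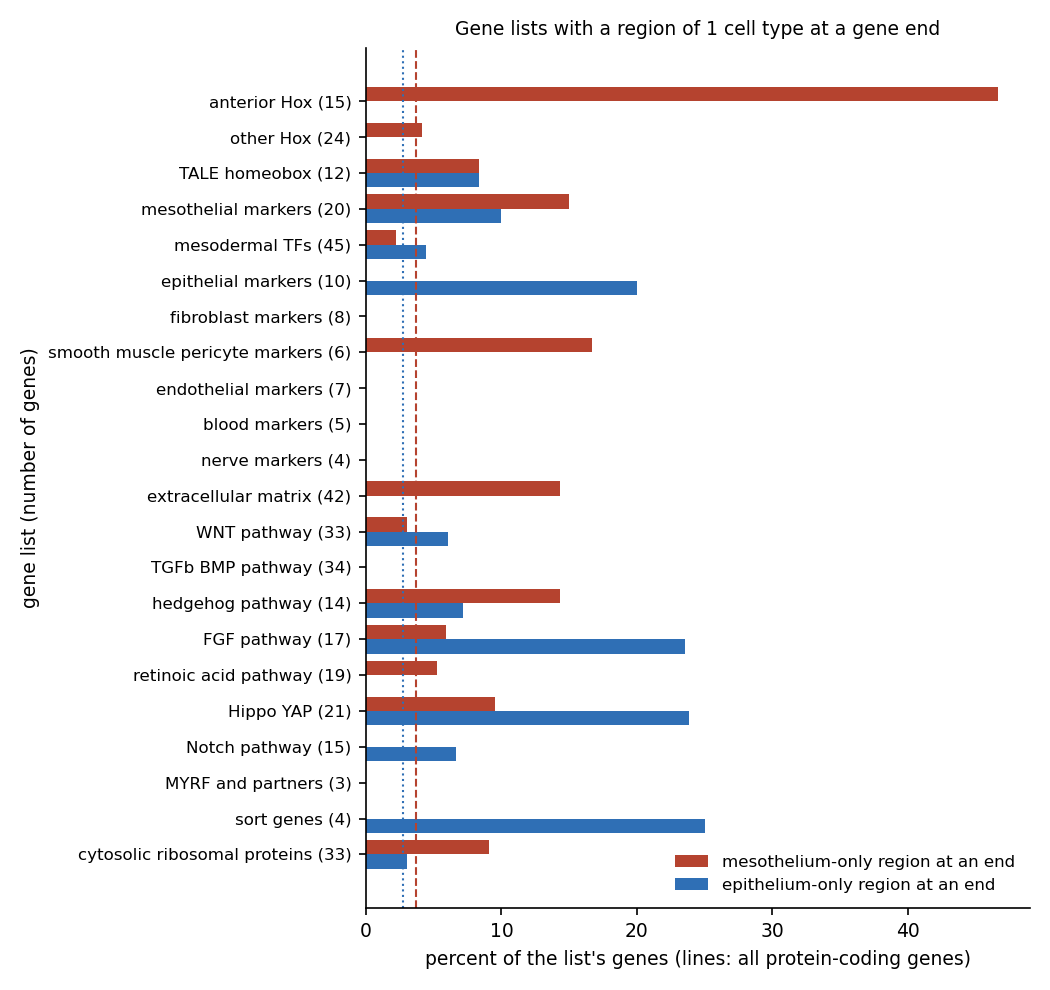
Percent of the genes of each list (number of genes in brackets) with a mesothelium-only (red) or epithelium-only (blue) region within 2 kb of an end, with the shares of all protein-coding genes as a dashed red line (3.66%) and a dotted blue line (2.7%). The anterior Hox genes reach 46.7%, and bars of small lists rest on 1 or 2 genes.

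Most of the regions stood alone. Joined where they lay at most 50 kb apart, they formed 844 runs, and 126 regions (13.8%) were in runs of 2 or more. The run with the most regions held the 4 at Hoxb3, Hoxb4, Hoxb5 and Mir10a over 22.4 kb. It was followed by 3 regions over 70.8 kb at Mtss1, Rnf139 and Trmt12 and 3 over 46.1 kb in the Hoxa cluster. In the run at Mtss1, an actin-membrane adaptor gene, the cover was 0.710 and 0.332 kb, and at Rnf139 1.00 and 0.957 kb.

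Another mesothelium-only region of any kind lay within 50 kb of 293 of the 911 regions (32.2%), and an epithelium-only region within 50 kb of 182 (20.0%). Around the 915 epithelium-only gene-end regions, a mesothelium-only region lay within 50 kb of 156 (17.0%). All-library gene-end regions had a mesothelium-only neighbour in 28.4% of cases and an epithelium-only one in 29.9%. The nearest epithelium peak lay at a median of 7.61 kb from a region, within 1 kb of 106 regions (11.6%), and beyond 10 kb from 383 (42.0%).

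Of the 800 protein-coding genes, 70 (8.75%) also had a region of all 4 libraries at an end, against 12.0% of all protein-coding genes. Another count, of genes with 2 of the mesothelium-only regions, was 17. In 74 genes an epithelium-only region lay in the same gene, and the genes with the widest regions were Armc9, Nif3l1, Ptprq, Kctd18, Patz1 and Ccdc146. The share of all protein-coding genes with an epithelium-only region inside was not counted, so the 74 have no background to be read against. At Armc9 the epithelium-only region was 2.79 kb wide and the gene held 5.65 and 11.7 kb under mesothelium peaks and 4.94 and 4.92 kb under epithelium peaks. At Patz1, a zinc-finger gene, epithelium peaks covered the longer part of the gene, with 6.35 and 6.92 kb against 2.34 and 1.69 kb. Patz1 thus had a mesothelium-only region near an end and more acetylated sequence in epithelium over the gene as a whole.

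The promoters under the regions were rich in CpG, as were those under crossed regions and regions of all 4 libraries. RefSeq lists a promoter for 633 of the 800 protein-coding genes (79.1%), which is under the 80% needed for a statement about the genes, so the values are for the 533 listed windows that the regions touch. Their median was 7.0 CpG per 100 bases, against 4.0 for 344 windows under epithelium-only regions, 7.67 for 2644 under all-library regions, 7.33 for 1108 under crossed regions and 2.33 for all 32851 listed windows. At most 1 CpG per 100 bases was found in 7.69% of the windows, against 16.0% under epithelium-only regions and 31.4% of all windows. No test was made, since promoters are not replicates.

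Motifs were searched as exact letters on both strands of the windows, and matches may overlap one another. In windows under the regions, the GC box of SP and KLF factors (GGGCGG) was found in 66.2% (35.7% of all windows), the CCAAT box of NF-Y (CCAAT) in 43.7% (37.4%), ETS (CCGGAAG) in 24.2% (8.86%), YY1 (ATGGCGG) in 8.07% (4.05%), CRE (TGACGTC) in 7.50% (3.21%) and NRF1 (GCATGCG) in 7.13% (3.58%). These motifs are known from CpG-rich promoters. Under all-library regions the GC box and ETS had similar shares of 65.3% and 22.4%. Under epithelium-only regions the GC box was found in 47.4% and ETS in 13.1%.

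Motifs of factors named for mesothelium or its signals were no more frequent under the regions than in all windows, whose median CpG content was lower. WT1 (GTGGGAG) was found in 8.82% (9.73% of all windows), TEAD (GGAATG) in 12.0% (14.7%), MEIS (TGACAG) in 16.3% (19.2%), PBX-HOX (TGATNNAT) in 4.50% (8.85%), the GATA motif (AGATAA) in 5.82% (11.2%) and T-box (AGGTGTG) in 4.13% (5.84%). The motif of MYRF was found in 3.56% in its C form (CTGGCAC, 5.01% of all windows) and in 1.69% in its T form (CTGGTAC, 2.24%). The remaining shares were 6.19% for the TATA box (TATAAA, 13.6%), 13.9% for the E-box (CAGCTG, 16.3%), 4.69% for AP-1 (TGANTCA, 7.81%), 1.501% for forkhead (TGTTTAC, 3.65%) and 2.06% for NKX2 (CACTTGA, 3.06%). Under all-library regions, closer in CpG content, the shares of MEIS (13.8%), PBX-HOX (3.56%), GATA (5.18%) and T-box (3.37%) were lower than under the mesothelium-only ones. WT1 (11.2%), TEAD (12.4%) and the C form of MYRF (3.97%) had higher shares. Under crossed regions MEIS (17.6%), GATA (6.05%) and WT1 (9.03%) had higher shares, and PBX-HOX (2.89%), T-box (3.70%) and TEAD (10.6%) lower ones. Under epithelium-only regions, whose windows were lower in CpG, MEIS (18.9%), PBX-HOX (4.94%), GATA (8.72%) and T-box (7.85%) had higher shares than under the mesothelium-only ones. So had TEAD (15.4%), WT1 (9.59%) and the C form of MYRF (4.65%), while its T form (0.581%) had a lower one. These differences were not tested. A match is a run of letters in a window and not a bound site.

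**Figure D5:**
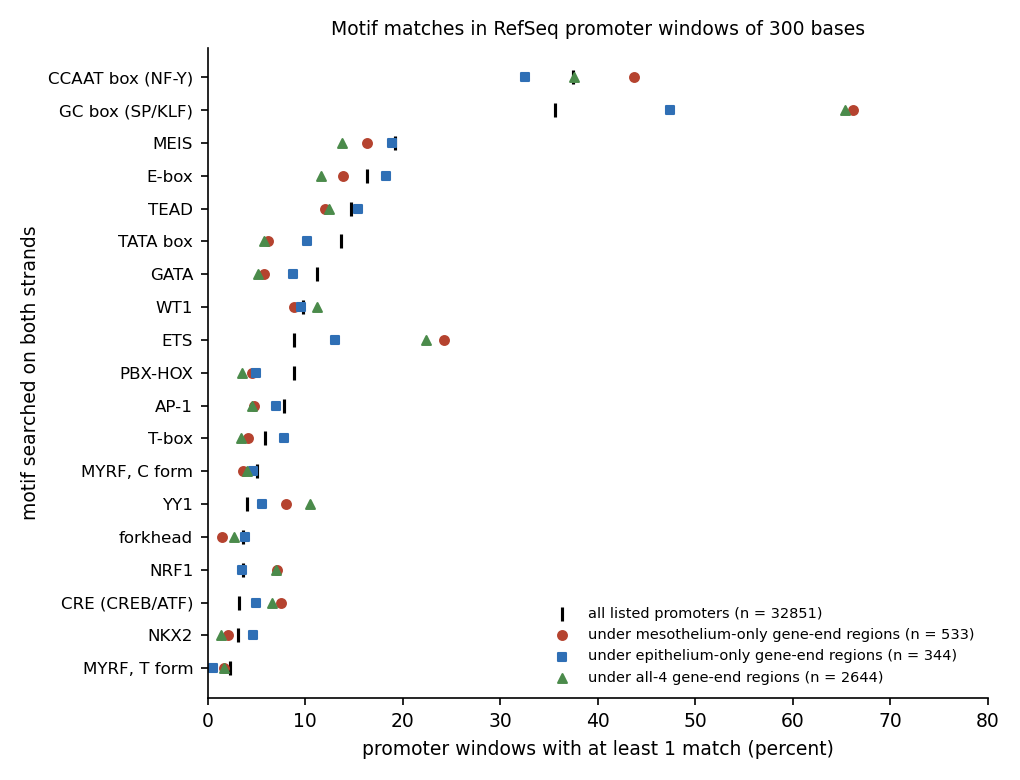
Percent of RefSeq promoter windows (300 bases) with at least 1 match to each of 19 motifs, for windows under mesothelium-only gene-end regions (red circles, n = 533), epithelium-only ones (blue squares, n = 344), all-library ones (green triangles, n = 2644) and all listed windows (black ticks, n = 32851). Red circles and green triangles lie close together for the GC box (66.2% and 65.3%) and ETS (24.2% and 22.4%), to the right of the black ticks.

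The limit of 2 kb cut through a series of near cases. Just inside it lay regions at Gm35417 (1983 bp from the gene end, 0.853 and 0.633 kb covered) and Phf12 (1993 bp, 0.378 and 0.517 kb). Just outside it lay a mesothelium-only region inside Hoxb3 (chr11:96309117-96311682, 2016 bp, 2.57 and 2.23 kb) and one at n-TEttc6 (2019 bp, 0.333 and 1.25 kb). The region inside Hoxb3 thus belongs to the same stretch of chromosome 11 as the 4 regions of the longest run and is not counted among them.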

How the data were processed

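Per the labels' protocols, H3K27ac CUT&RUN was done with a commercial kit on sorted cells of pooled lungs. The submitters' processing notes name cutadapt 4.8, Bowtie2 2.5.3, MACS2 2.2.9.1 and the build mm10. No control or threshold of the peak caller is given in the sources used here. The deposited lists hold broad peaks called per library, with the authors' fold enrichment (a ratio over background), −log10 p and −log10 q. The deposited score is the whole part of 10 times the −log10 q and was not used. Groups came from the sample titles.

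Overlapping or touching peaks were merged, and gene ends came from a RefSeq table of GRCm38.p6. Listed promoters gave strand and start. Cover is the length under peaks in kb. Genes were named by rule: the 10 widest regions, the 10 with the highest lower −log10 q, the 5 with the longest common cover, up to 6 genes per list (378 symbols, all matched), the 3 longest runs, the cases at the limit, and the sort genes. A few genes named by the rule are not reported here. The members and lists were chosen with earlier results of these data known. No reads were available for a count model, and no test was made. The merging and distance steps were tested on simulated intervals. The scripts ran on numpy 2.4.6 and pandas 2.3.3 under Python 3.11.15, with scipy 1.17.1, and figures were drawn with matplotlib 3.10.9. Alternatives covered the peaks admitted, merging, presence, distance, gene set and leaving out each library.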

Additional observations from a re-analysis of the deposited data

How the results depend on the processing

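Of 114 alternative values of 10 results, 62 stayed within the stated range of the reported value and 52 did not. With a −log10 q of at least 2, 862 regions passed, but these overlapped 271 of the 911. The share near a gene end was then 44.8%, the median width 1783 bp, the share with a start 61.3%, the median CpG per 100 bases 7.67, and the anterior Hox count 4 and the mesodermal count 0. With at least 4, 70 regions at 92 protein-coding genes were left (8 of the 911), with 82.4% near a gene end, a ratio to the crossed mean of 3.46, a width of 1580 bp, 80% with a start, and 0 anterior Hox, 0 mesothelial and 0 mesodermal genes. Where a peak had to cover 25% of a region, the share near a gene end was 29.7%, the width 1658.5 bp and the share with a start 45.5%. Counting only regions that overlap the gene end left 504 regions at 446 protein-coding genes, 14.6% of all mesothelium-only regions, with a width of 1631.5 bp and 0 mesodermal genes. The share near a gene end was 22.2% at 1 kb, 35.4% at 5 kb (5 mesodermal genes) and 19.04% for protein-coding genes alone. Leaving out each library in turn gave 1591 to 4777 regions, 1562 to 3424 genes, 15.4 to 32.8% near a gene end, widths of 558 to 1587 bp, 13.7 to 50.5% with a start, 3 to 10 mesothelial and 1 to 8 mesodermal genes, and 6.0 to 7.33 CpG per 100 bases. The ratio has no such value because the crossed patterns need all 4 libraries. With equal numbers of peaks (39006) 978 regions passed and 871 of the 911 were overlapped, and with peaks up to 500 bp apart merged 1003 and 857. No paired analysis was possible because the results come from no test. The lists hold no reads, so absence of a peak is not absence of acetylation, and depth may differ between libraries.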

Other observations

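A few features were noticed after the values were seen and are given as values. Of 30 genes whose symbols begin with Med, 5 had a mesothelium-only gene-end region: Med8, Med9, Med16, Med24 and Med26, which encode subunits of the Mediator complex. The share was 16.7%, against 3.66% of all protein-coding genes. Peaks covered 0.327 and 1.44 kb at Med8, 0.581 and 0.456 kb at Med9, 0.479 and 0.717 kb at Med24 and 2.22 and 1.56 kb at Med26 in mesothelium replicates 1 and 2. The regions at Med8, Med16 and Med26 each lay within 2 kb of another coding gene too. Among symbol families with at least 3 such genes, higher shares were found in Hoxa (5 of 11) and Hoxb (3 of 10). Lower ones followed in Kctd (3 of 22), Zc (3 of 23) and Ddx, a family of RNA helicases (4 of 37), and Zfp, zinc-finger genes, had 18 of 397 (4.53%).

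Of the 800 protein-coding genes, 5 (0.625%) had both a mesothelium-only and an epithelium-only region at an end: Bicd2, Fxr2, Glb1, Rad54l and Rps19. Among all 21887 protein-coding genes, 2.7% had an epithelium-only region at an end. At Lig1, a DNA ligase gene with a mesothelium-only region near each end, the region near its start, which holds the start of the neighbouring Zswim9, was covered over 1.34 and 1.26 kb, and an epithelium peak lay 3 bp from it. At Socs3, an inhibitor of cytokine signalling, regions of 2.88 and 1.57 kb lay beyond its stop and inside the gene near its start, and the nearest epithelium peaks were 10.8 and 5.72 kb away.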
